A study of Mus musculus with 24 samples.

Results

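The 46 genes described here encode the synaptic vesicle and release machinery of the presynaptic terminal, and their RNA was measured in the dorsal hippocampus of WT and CBP KIX/KIX mice. The genes were taken by name from a fixed list, and all 46 were found by symbol among the 51826 identifiers of the count table. CBP KIX/KIX mice carry, in the germline and so in every cell and throughout development, point mutations in the KIX domain of the coactivator CBP that prevent the binding of phosphorylated CREB, and WT littermates from heterozygous matings served as controls. All mice were labelled male, although the methods speak of mice of both sexes, were of C57BL/6J background and were about 3 months old. In RNA-Seq 1, 3 WT and 3 CBP KIX/KIX mice were taken 1 h after the last trial of 3 days in the Morris water maze (MWM), a spatial learning task, beside 3 WT mice taken from the homecage. In RNA-Seq 2, 4 WT and 4 CBP KIX/KIX mice were taken 1 h after contextual fear conditioning (CFC) with a single foot shock, beside 3 WT and 4 CBP KIX/KIX homecage mice. RNA-Seq 1 holds no CBP KIX/KIX homecage mice. RNA-Seq 1 used total RNA depleted of ribosomal RNA and RNA-Seq 2 polyA-selected RNA, sequenced at another site, so library type, site and task cannot be told apart. That each library is 1 mouse is taken from the numbers of animals in the study's figure legends, as the labels give only replicate numbers. For the WT homecage mice beside CFC the legend gives 4, whereas 3 libraries are present.

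At a resting terminal, neurotransmitter is held in vesicles whose membrane carries transporters, the SV2, synaptophysin and synaptogyrin proteins and the calcium sensor synaptotagmin. Synapsins tether vesicles to one another, Rab3 GTPases and the active zone proteins RIM, RIM-BP, Munc13, Bassoon, Piccolo and ELKS dock and prime them, and the SNARE proteins synaptobrevin, SNAP-25 and syntaxin drive their fusion with the plasma membrane when calcium enters. Complexins hold the assembled SNAREs ready, NSF with its SNAP adaptors takes them apart again, and dynamin, amphiphysin and synaptojanin retrieve the membrane. Most terminals of the dorsal hippocampus release glutamate, which VGLUT1 (Slc17a7) loads into vesicles.

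Libraries held 38174044 to 65709282 counts in RNA-Seq 1 and 15385836 to 46056290 in RNA-Seq 2, where replicates 3 and 4 of every group were the shallower ones. The 46 genes took 1.76% to 2.05% of all counts in RNA-Seq 1 and 2.03% to 2.18% in RNA-Seq 2. A count of 3 corresponds to at most 0.195 CPM (counts per 1000000 counts of a library, after upper-quartile normalization over the 24 libraries), which is below every value given here. Crebbp, which encodes CBP, was not called between the genotypes after learning (log2 fold change -0.01, SE 0.04, adjusted p = 0.896), and the point mutations themselves cannot be seen in counts per gene. In CBP KIX/KIX homecage mice, replicates 3 and 4 stood apart from the other libraries of RNA-Seq 2, and results that rest on them are given with and without them.

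The levels of the 46 genes spanned a wide range. Per kilobase of exon, Snap25 was highest in WT homecage mice of RNA-Seq 2, at 287.8 ± 4.88 CPM per kb (SD, n = 3), and Syn3, which encodes synapsin III, was lowest at 0.656 CPM per kb. Between these ends came Dnm1 (dynamin 1) with 254.2 ± 11.3, Cplx2 (complexin 2) with 242.3, Slc17a7 with 237.6, Cplx1 (complexin 1) with 232.6 and Vamp2 (synaptobrevin 2) with 213.9 CPM per kb. The third SNARE of the fusion complex, Stx1a (syntaxin 1A), stood at 38.7 CPM per kb, far below Snap25 and Vamp2. Within families, among the SV2 genes, Sv2a reached 96.4, Sv2b 54.3 ± 1.14 and Sv2c 3.13 CPM per kb, and among the Munc13 genes Unc13a stood at 33.9, Unc13b at 2.91 and Unc13c at 1.89 CPM per kb. Of the 45 pairs of neighbours in the order of levels, 18 had separate ranges over the 3 mice. The ranges of the other pairs overlapped. All genes were measured in the same mice and were not compared mouse by mouse, so an overlap does not show equal levels. Snap25 and Dnm1 were separate, whereas the ranges of Dnm1 and Cplx2 overlapped.

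Levels depended on the experiment. In WT homecage mice of RNA-Seq 1, Slc17a7 was highest at 534.8 ± 160.7 CPM per kb (SD, n = 3), followed by Dnm1 with 381.2 and Cplx2 with 351.8, and Snap25 stood at 135.4 ± 8.51 CPM per kb, below Syngr1 (253.3), Sv2a (251.6) and Syp (242.5). Across the 46 genes the log levels of the 2 experiments had a Pearson correlation of 0.931, given as a description over genes that share their libraries. Between the WT homecage mice of the 2 experiments, 14209 of 20602 genes tested, or 69.0%, passed the test (edgeR's quasi-likelihood test with Benjamini-Hochberg adjustment over all genes tested, adjusted p under 0.05), and 32 of the 46 genes (69.6%) did, 21 of them higher and 11 lower in RNA-Seq 1, a share near that of all genes. Bsn, which encodes Bassoon, was 1.71 higher on the log2 scale in RNA-Seq 1 (SE 0.21), with Syt12 (1.62), Rims3 (1.49) and Syt2 (1.46) after it. The genes furthest below their RNA-Seq 2 level were Unc13c (-1.26), Syt4 (-1.20), Snap25 (-1.11) and Rab3c (-0.93). The difference varied with base composition. The 16 genes with at least 55% G and C in their longest transcript had a median log2 difference of 0.76. The 7 genes under 45% had one of -0.93. Over the 46 genes the correlation was 0.501 (Spearman's rho 0.466), given as a description. Single genes departed from this, as Syn1, with 57.9% G and C, was at -0.50 and Pclo, with 45.45%, was at 1.12, whereas Unc13c had 45.4%.

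**Figure D1:**
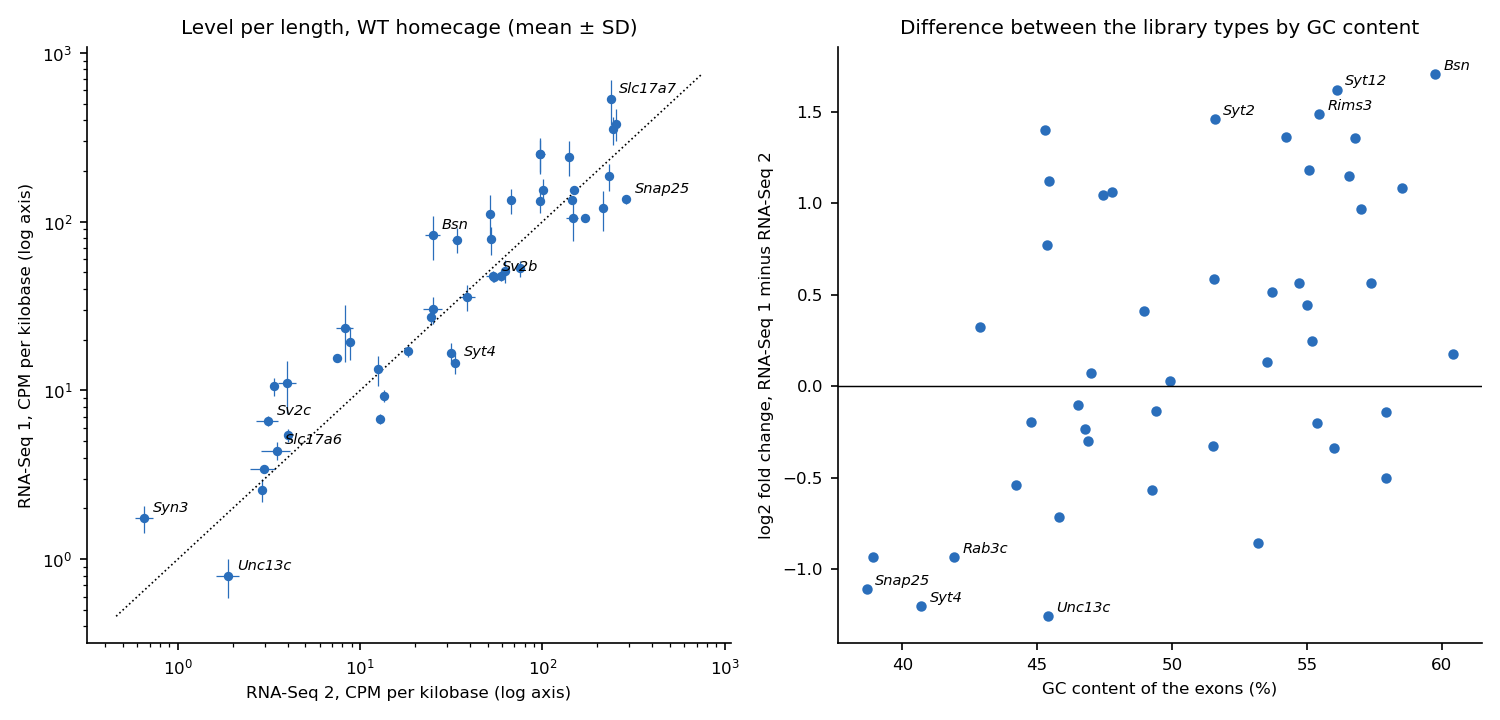
The left panel plots CPM per kb of each of the 46 genes in WT homecage mice, RNA-Seq 1 against RNA-Seq 2, on log axes. The right panel plots the log2 fold change of RNA-Seq 1 against RNA-Seq 2 over the percent G and C of the longest transcript. The median was 0.76 for the 16 genes of at least 55% and -0.93 for the 7 genes under 45%, with wide scatter between.

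After learning, the RNA of 3 of the 46 genes was lower in the mutants than in their WT littermates. These were Snph, which encodes syntaphilin, a protein that anchors axonal mitochondria and binds syntaxin, Sv2b, which encodes synaptic vesicle glycoprotein 2B, and Cplx1. The differences were small, between 8.36% and 10.3%. This comparison took the 7 mutant and 7 WT trained mice of both experiments together, with the experiment and 4 factors of unwanted variation in the fit. The study's fit held the same terms, but its counts had first been normalized for GC content, a step left out here. Of all 20496 genes tested, 552 passed the test, or 2.69%, and 3 of 46 is 6.52%. The calls rest on the factors. Without them 4 genes passed over the whole table, or 0.0195%, and none of the 46 did, although the differences themselves hardly moved. An unadjusted p under 0.05 was then reached by 5 of the 46 and by 1846 of the 20496 genes. With the GC-content normalization of the study added, none of these 3 passed (adjusted p = 0.143 for Snph, 0.112 for Sv2b and 0.125 for Cplx1, edgeR) and Doc2b alone did, against 1.06% of all genes. DESeq2 with the 4 factors called 884 of 12151 genes (7.28%) and 9 of the 46, these 3 and 6 others.

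Promoter sequences from RefSeq (GRCm38.p6) are shown for these 3 genes, to display the sequence before the start of transcription in the genes called, and for Syn1, whose promoter was chosen after its match was seen. Capitals mark a match to 1 of 4 motifs searched on both strands. These were the cAMP response element (CRE) TGACGTCA, to which CREB binds, its core TGACG or CGTCA, the E-box CACGTG and the Egr site GCGTGGGCG or its reverse complement CGCCCACGC, and a full CRE holds a core on each strand. All 4 genes lie on the minus strand, and each sequence runs from 5′ to 3′ and ends at the start of transcription or, for Cplx1, where the match that crosses it ends. The Sv2b window, chr7:75302610-75302859, is 1 of 4 for this gene, belongs to a start 6653 bases inside the 5′ end of the gene (chr7:75114894-75309262) and was taken because it holds the E-box, 193 bases before the start. The Snph window, chr2:151632594-151632843, holds none of the motifs. The Cplx1 window, chr5:108550024-108550277, holds a CRE core at the start. The Syn1 window, chrX:20920919-20921168, holds a full CRE 159 bases before the start.
Sv2b: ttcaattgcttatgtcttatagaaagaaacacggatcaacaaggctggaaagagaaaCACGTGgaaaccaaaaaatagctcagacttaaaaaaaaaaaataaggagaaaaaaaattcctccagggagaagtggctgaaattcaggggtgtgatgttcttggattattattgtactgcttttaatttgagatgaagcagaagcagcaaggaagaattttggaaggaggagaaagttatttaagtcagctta
Snph: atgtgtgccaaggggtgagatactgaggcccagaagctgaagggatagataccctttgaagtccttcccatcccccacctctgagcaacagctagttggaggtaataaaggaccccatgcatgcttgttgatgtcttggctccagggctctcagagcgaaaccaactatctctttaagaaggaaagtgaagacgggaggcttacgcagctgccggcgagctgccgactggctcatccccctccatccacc
Cplx1: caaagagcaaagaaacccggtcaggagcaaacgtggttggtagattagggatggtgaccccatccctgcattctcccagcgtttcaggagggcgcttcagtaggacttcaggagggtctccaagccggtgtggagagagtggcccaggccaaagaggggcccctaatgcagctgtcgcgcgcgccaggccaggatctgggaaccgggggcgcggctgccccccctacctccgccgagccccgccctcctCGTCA
Syn1: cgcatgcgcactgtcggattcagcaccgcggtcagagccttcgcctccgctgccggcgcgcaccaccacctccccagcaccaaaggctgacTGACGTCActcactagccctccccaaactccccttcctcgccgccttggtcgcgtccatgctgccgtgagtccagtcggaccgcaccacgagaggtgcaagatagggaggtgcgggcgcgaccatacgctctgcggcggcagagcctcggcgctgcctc

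Windows of 250 bases before to 50 bases after a start were found for 35 of the 46 genes, 45 windows in all. The full CRE was in 1 of the 45 windows (2.22%), that of Syn1, against 1.79% of all 32851 promoters in the table. The CRE core was in 9 of the 45 (20%, against 20.8% of all promoters), those of Cplx1, Rab3a, Rab3b, Slc17a6, Stx1a, Syn1, Synj1, Syt2 and Unc13a. The E-box was in 3 (6.67%, against 7.15%), those of Nsf, Sv2b and Unc13b, and the Egr site in 2 (4.44%, against 0.612%), those of Synj1 and Unc13a. Doc2a, Doc2b, Rims2, Snap25, Syn3, Syngr3, Syt12, Syt5, Syt7 and Vamp2 had no window. Syt4 lies on chromosome 18, whose windows were not used for the 46 genes. A match describes these letters only.

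Snph (ENSMUSG00000027457.15, chr2:151590549-151632593, minus strand) stood at 761, 886 and 757 CPM in the WT MWM mice and at 698, 608 and 675 CPM in the CBP KIX/KIX MWM mice. After CFC it stood at 429, 380, 393 and 385 CPM in WT and at 388, 400, 378 and 359 CPM in CBP KIX/KIX mice. The 3 mutant MWM mice lay below all 3 WT MWM mice, whereas after CFC the groups overlapped. Over both experiments Snph fell by 9.69% (log2 fold change -0.15, SE 0.03, edgeR's quasi-likelihood test with Benjamini-Hochberg adjustment over all genes, adjusted p = 0.0249) and lay below the WT mean of its own experiment in 6 of 7 mutant mice. Without the factors the log2 fold change was -0.15 with an SE of 0.06 and an adjusted p of 0.484.

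Sv2b (ENSMUSG00000053025.13), the SV2 form best known from forebrain glutamate neurons, stood at 509, 483 and 538 CPM in WT MWM mice and at 462, 436 and 464 CPM in CBP KIX/KIX MWM mice. The mutant mice again lay below all WT mice of the maze. After CFC Sv2b stood at 449, 402, 469 and 433 CPM in WT and at 436, 358, 407 and 434 CPM in CBP KIX/KIX mice, with overlapping ranges. Sv2b fell by 8.36% (log2 fold change -0.13, SE 0.03, edgeR, adjusted p = 0.0457) and was below the WT mean in 7 of 7 mutant mice. Without the factors the log2 fold change was -0.12 (SE 0.05, edgeR, adjusted p = 0.521).

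Cplx1 (ENSMUSG00000033615.9, chr5:108518554-108550024, minus strand) stood at 361, 395 and 406 CPM in WT MWM mice and at 365, 297 and 337 CPM in CBP KIX/KIX MWM mice. After CFC it stood at 538, 496, 458 and 474 CPM in WT and at 521, 456, 416 and 421 CPM in CBP KIX/KIX mice. The groups overlapped in both experiments, and 6 of 7 mutant mice were below the WT mean. Cplx1 fell by 10.3% (log2 fold change -0.16, SE 0.04, edgeR, adjusted p = 0.0460), and without the factors the log2 fold change was -0.15 (SE 0.06, adjusted p = 0.506).

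**Figure D2:**
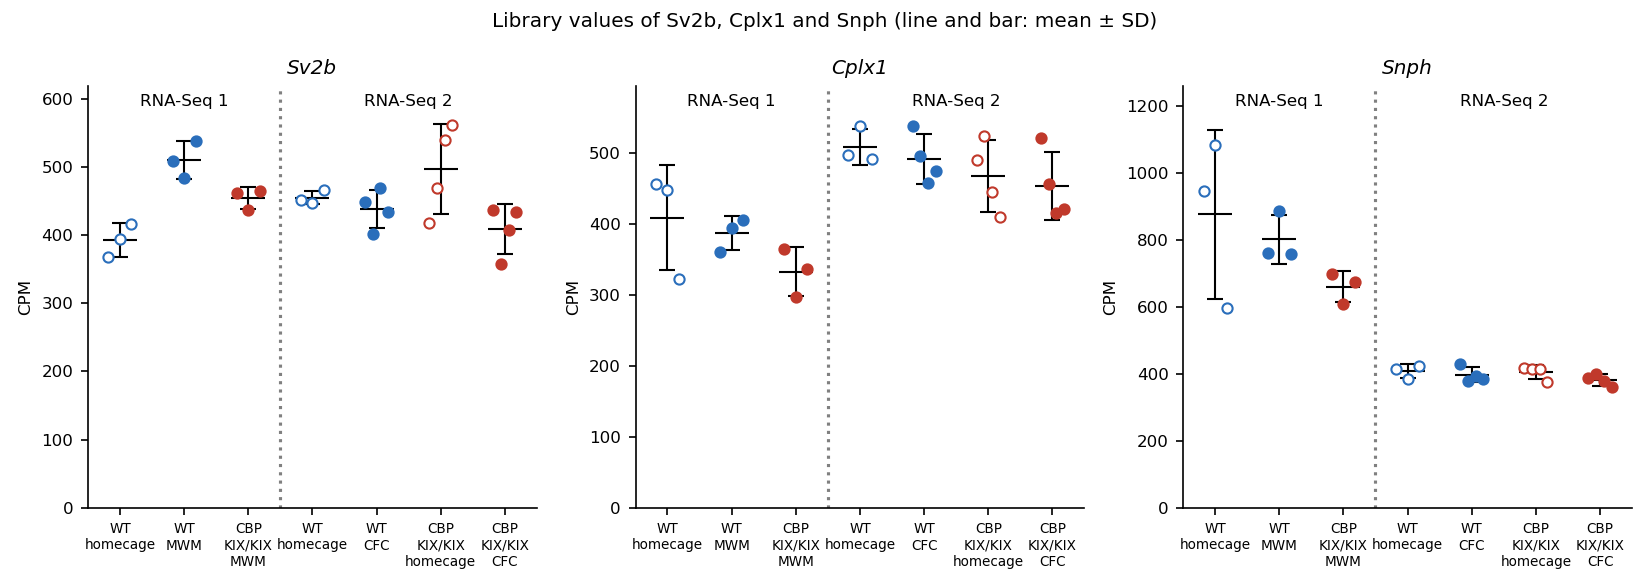
CPM of Sv2b, Cplx1 and Snph in each library by group, with the mean and the SD as a bar, open symbols for homecage mice, blue for WT and red for CBP KIX/KIX. In the MWM groups the mutant mice of Sv2b (436 to 464 CPM) and Snph (608 to 698 CPM) lie below the WT mice, and in the CFC groups the ranges overlap.

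Each experiment alone gave no call among the 46 genes in edgeR, with 5 genes at an unadjusted p under 0.05 in RNA-Seq 1 and 1 in RNA-Seq 2. Of all genes tested, 2235 of 21319 and 608 of 17541 reached that p. In RNA-Seq 1 the log2 fold changes were -0.27 for Snph, -0.21 for Cplx1 and -0.16 for Sv2b, and in RNA-Seq 2 they were -0.06, -0.11 and -0.10. The interaction of genotype with task, fitted without factors, was called for none of the 46 genes in edgeR and none had an unadjusted p under 0.05. Of all 21489 genes tested, 0 were called and 1389 reached that p, so the lack of a call does not show that the tasks agreed. When each of the 14 libraries was left out in turn, Snph was called in 10 fits, Cplx1 in 7 and Sv2b in 5, always with a lower level in the mutant mice. Snph lost its call without WT MWM replicate 2, CBP KIX/KIX MWM replicate 1 or 2 or CBP KIX/KIX CFC replicate 4 (adjusted p 0.0594 to 0.146). Cplx1 lost it without WT MWM replicate 2 or 3, CBP KIX/KIX MWM replicate 2 or 3, WT CFC replicate 4 or CBP KIX/KIX CFC replicate 3 or 4 (0.0548 to 0.106). Sv2b lost it without WT MWM replicate 1 or 3, CBP KIX/KIX MWM replicate 1 or 2, WT CFC replicate 1 or 3 or CBP KIX/KIX CFC replicate 2, 3 or 4 (0.0595 to 0.173).

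Across the whole machinery most values lay slightly below 0 after learning in the mutant mice. The log2 fold change was below 0 for 35 of the 46 genes, with a median of -0.05, where 52.1% of all genes tested were below 0 with a median of -0.01. An unadjusted p under 0.05 was reached by 18 genes, 15 of them lower and 3 higher in the mutant mice (Synpr, Doc2b and Erc2). Of all 20496 genes tested, 3778 reached that p. In the experiments taken alone, 25 genes were lower and 5 higher in both. Of all genes tested, 52.6% were below 0 in RNA-Seq 1 and 48.9% in RNA-Seq 2, and the share lower in both was not counted.

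By role, the vesicle membrane proteins had 1 call in 7 genes (Sv2b) and a median log2 fold change of -0.08. Syngr1, which encodes synaptogyrin 1, had a log2 fold change of -0.15 (adjusted p = 0.0624), Syp, which encodes synaptophysin, one of -0.09 (adjusted p = 0.110) and Synpr, its relative synaptoporin, one of 0.14 (adjusted p = 0.147). The SNAREs and their helpers had 1 call in 8 genes (Cplx1) and a median of -0.06, with 7 of 8 below 0. The endocytic genes with syntaphilin had 1 call in 4 (Snph), and all 4 were below 0.

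The other 5 roles held no call. All 3 synapsins were below 0, and Syn1, which encodes synapsin I (chrX:20860511-20921004, minus strand), stood at 290, 408 and 283 CPM in WT MWM mice and at 290, 236 and 299 CPM in CBP KIX/KIX MWM mice. After CFC Syn1 stood at 507, 454, 493 and 465 CPM in WT and at 481, 478, 461 and 439 CPM in CBP KIX/KIX mice. These ranges overlapped in both tasks, and the log2 fold change was -0.12 (SE 0.04, adjusted p = 0.0748). WT MWM replicate 2, with 408 CPM, stood above the other 2 WT mice of its group.

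Of the 9 calcium sensors and their relatives, 4 were below and 5 above 0. Doc2b, a soluble high-affinity calcium sensor for release, had the lowest p among them, with 149, 134 and 117 CPM in WT MWM mice against 131, 125 and 139 CPM in mutant MWM mice. After CFC Doc2b stood at 102, 93.8, 122 and 121 CPM in WT and at 113, 142, 131 and 135 CPM in CBP KIX/KIX mice. The ranges overlapped in both tasks, and only the CFC mice lay towards higher values in the mutant. The joint log2 fold change was 0.14 (SE 0.04, adjusted p = 0.0834), made up of -0.01 in RNA-Seq 1 and 0.25 in RNA-Seq 2.

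Among the 10 active zone genes 7 were below 0, with a median of -0.06. Unc13b, which encodes the priming factor Munc13-2, stood at 71.4, 63.8 and 68.5 CPM in WT MWM mice and at 55.8, 61.3 and 64.7 CPM in CBP KIX/KIX MWM mice. After CFC Unc13b stood at 67.9, 64.1, 67.3 and 68.2 CPM in WT and at 64.6, 57.4, 62.7 and 72.2 CPM in CBP KIX/KIX mice. The ranges overlapped in both tasks, and the log2 fold change of Unc13b was -0.10 (adjusted p = 0.105). Bsn had -0.12 (adjusted p = 0.113), and Erc2, which encodes the scaffold ELKS2, had 0.09 (adjusted p = 0.206) and was above the WT mean in 7 of 7 mutant mice.

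Among the 3 Rab3 genes and both vesicular glutamate transporters no gene reached an unadjusted p under 0.05. Rab3a, which encodes the main Rab3 of vesicles, stood at 276, 291 and 286 CPM in WT MWM mice and at 296, 269 and 275 CPM in CBP KIX/KIX MWM mice, and after CFC at 221, 207, 200 and 204 CPM against 215, 212, 199 and 195 CPM. The 2 genotypes overlapped, with a log2 fold change of -0.02 (adjusted p = 0.800). Slc17a7 stood at 2231, 2863 and 2464 CPM in WT MWM mice and at 2488, 2035 and 2243 CPM in CBP KIX/KIX MWM mice. After CFC it stood at 1326, 1222, 1223 and 1241 CPM in WT and at 1298, 1398, 1188 and 1155 CPM in CBP KIX/KIX mice, again overlapping, and the log2 fold change was -0.06 (adjusted p = 0.413).

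**Figure D3:**
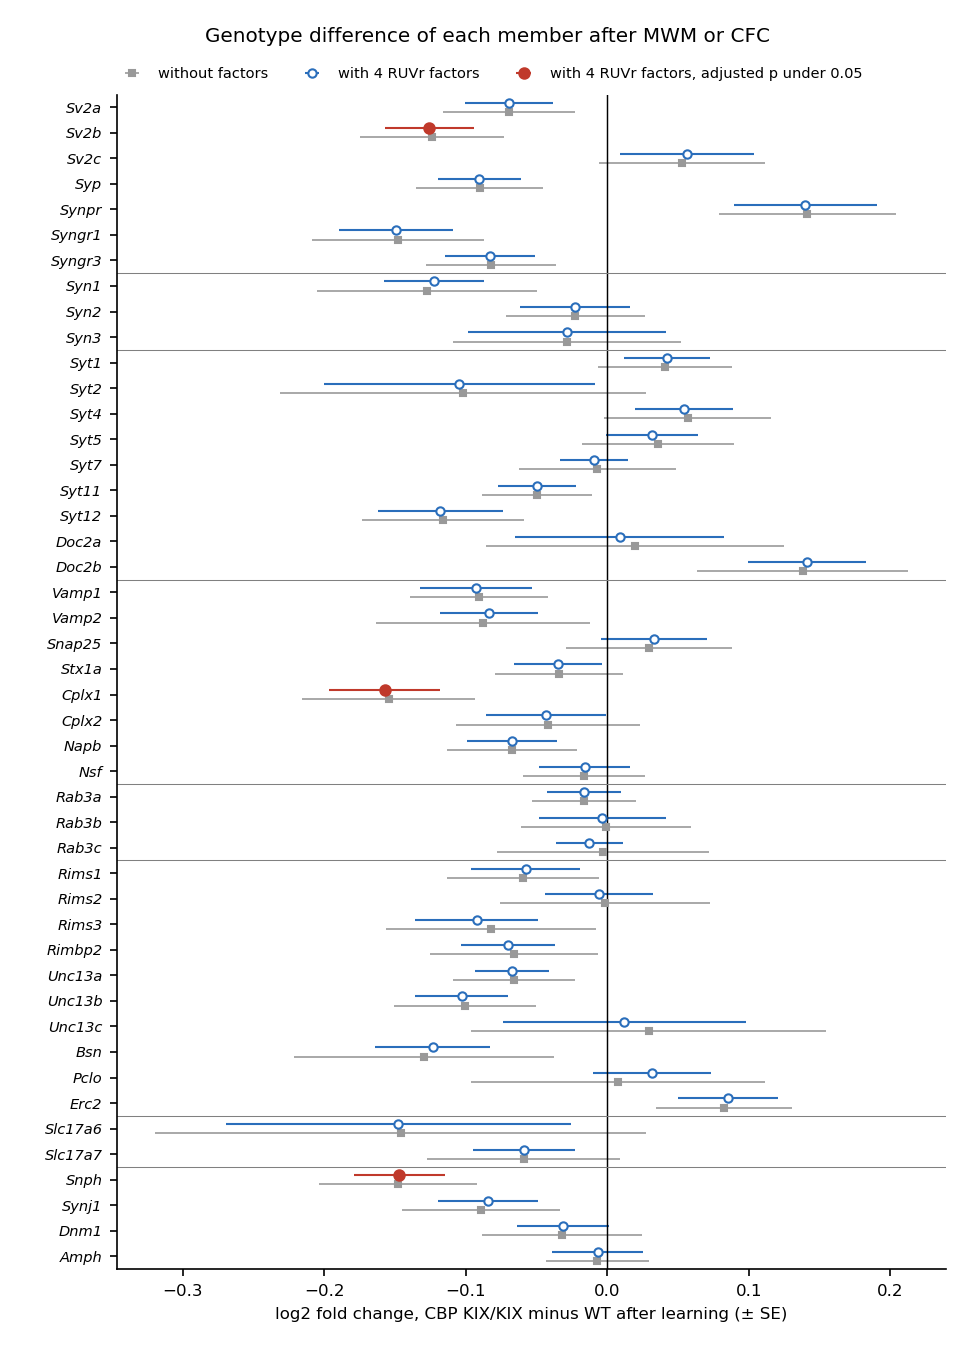
The log2 fold change of CBP KIX/KIX against WT mice after learning with its SE for each of the 46 genes, from the fit with 4 factors and from the fit without them, with calls in red. The values of the 2 fits lie close together, and Snph (-0.15), Sv2b (-0.13) and Cplx1 (-0.16) are the calls of the fit with factors.

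Markers of hippocampal cell types were read beside this comparison. The summed CPM of 4 markers of CA1 pyramidal cells (Wfs1, Fibcd1, Pou3f1 and Man1a) was 815.5 to 882.3 in CBP KIX/KIX MWM mice and 923.1 to 1099.1 in WT MWM mice, a ratio of 0.809, and 342.2 to 382.1 against 373.9 to 435.4 after CFC, a ratio of 0.898. After MWM only Fibcd1 of these 4 was without overlap, at 439, 502 and 395 CPM in mutant and 598, 639 and 563 CPM in WT mice. Wfs1 and Pou3f1 overlapped. Man1a overlapped too and leaned the other way, at 96.0, 115 and 113 CPM in mutant and 105, 98.5 and 96.7 CPM in WT mice. The sum of 5 dentate granule cell markers was 333.9 to 439.6 in mutant and 307.7 to 328.4 in WT MWM mice. In the fit with factors the test was passed, with a lower level in the mutants, by 1 of the 4 CA1 markers, 2 of 6 interneuron markers, 2 of 5 astrocyte markers and 1 of 6 pan-neuronal markers, and with a higher level by 2 of the 5 dentate markers. None of the markers of the 6 other lists passed, and without the factors no marker of any list did. The summed pan-neuronal markers had a ratio of 0.976 in both tasks. In exact permutation tests over libraries the smallest p that 3 against 3 allows is 0.1. Between the genotypes after MWM it was reached for the CA1, the dentate and the microglia sums, the last with 271.5 to 281.6 CPM in mutant and 282.7 to 330.8 CPM in WT mice. All 66 tests of marker sums had an adjusted p of at least 0.471. The part of these markers in the differences of Snph, Sv2b and Cplx1 was not tested. In bulk tissue, fewer cells of a type and less RNA per cell cannot be told apart.

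Beyond the 46, 74 other genes of vesicle docking, filling and endocytosis were read from the same fit. Of the 74, 7 differed between the genotypes after learning and passed the test, 6 of them lower and 1 higher, where 552 of 20496 genes (2.69%) passed. Without the factors none of the 74 did. An unadjusted p under 0.05 was then reached by 11 of the 74 and by 1846 of the 20496 genes (edgeR). Rims4, a short RIM protein, was lower with 147, 132 and 160 CPM in mutant against 174, 185 and 176 CPM in WT MWM mice. After CFC it stood at 56.4, 41.1, 41.6 and 40.6 CPM against 55.3, 52.3, 49.9 and 42.2 CPM, with overlap. In the homecage of RNA-Seq 2 it was separate as well, at 45.9, 43.9, 45.8 and 40.2 CPM in mutant and 54.0, 53.5 and 56.7 CPM in WT mice. Over both trained experiments the log2 fold change of Rims4 was -0.21 (SE 0.03, edgeR, adjusted p = 0.00508). Apba1 (Mint1, a Munc18 binding adaptor) with -0.16 and Sncb (beta-synuclein) with -0.16 were lower as well, and Lin7c (a scaffold that binds CASK) was higher with 0.15. The median of the 74 was -0.02, and 46 were below 0. In WT mice after learning edgeR called none of the 74, with 21 of them and 3674 of 20901 genes at an unadjusted p under 0.05. DESeq2 called 7 of the 74, where it called 810 of 13202 genes (6.14%). Between the genotypes in the homecage edgeR called none, with 11 of the 74 and 1144 of 18682 genes at an unadjusted p under 0.05. DESeq2 called 2, Rims4 and Cplx3, both lower in the mutants, against 0.305% of all genes.

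In WT mice, learning was accompanied by no call among the 46 genes. In the 13 WT libraries of both experiments, with 3 factors, 204 of 20901 genes passed the test (0.976%) and 0 of the 46 did. An unadjusted p under 0.05 was reached by 10 of the 46 and by 3674 of the 20901 genes. DESeq2 called 810 of 13202 genes (6.14%) and 3 of the 46 (6.52%), Sv2b, Syt4 and Unc13b, all higher after learning, a share near that of all genes. The median log2 fold change was -0.03 over the 46 genes and -0.02 over all genes. The replicate numbers paired these libraries by the rule set for them. With the replicate number as a block beside the factors 5 of the 46 passed (Sv2b, Syt4 and Napb higher, Cplx2 and Sv2c lower), against 4.29% of all genes. The block without factors gave 0 of 46, with 3 of them and 1540 of the 20901 genes at an unadjusted p under 0.05.

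The study reported Sv2b as significantly higher in WT mice after learning and lower in trained CBP KIX/KIX than in trained WT mice. Here Sv2b had one of the lowest p-values of the 46 genes in the WT comparison but was not called in the fit reported. It stood at 367, 394 and 416 CPM in the WT homecage mice of RNA-Seq 1 and at 509, 483 and 538 CPM after MWM, with no overlap. In RNA-Seq 2 it stood at 452, 447 and 465 CPM in homecage and at 449, 402, 469 and 433 CPM after CFC, with overlap. The log2 fold change of Sv2b was 0.16 over both (SE 0.04, edgeR, adjusted p = 0.0943), 0.38 in RNA-Seq 1 alone (SE 0.12, adjusted p = 0.389) and -0.06 in RNA-Seq 2 alone. The difference between the tasks was 0.43 (SE 0.11), which did not pass the test over all genes (adjusted p = 0.534). With the block and the factors the value was 0.18 (adjusted p = 0.0251).

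Syt4, which encodes a synaptotagmin that does not bind calcium in the usual way and is known as an activity-induced gene, was named after its values were seen. It stood at 52.1, 52.1 and 66.5 CPM in homecage and at 71.6, 70.2 and 78.8 CPM after MWM in WT mice, without overlap, and at 130, 125 and 133 CPM against 141, 114, 134 and 125 CPM in RNA-Seq 2, with overlap. The log2 fold change of Syt4 was 0.18 (SE 0.05, edgeR, adjusted p = 0.0909), and 0.20 with the block and the factors (adjusted p = 0.0226). In the same WT mice of RNA-Seq 1 the dentate marker sum was 307.7 to 328.4 CPM after MWM against 412.4 to 454.7 CPM in homecage. The endothelial sum was 106.9 to 135.5 CPM against 148.5 to 176.7 CPM, and the other marker sums overlapped. The part of these markers in the values of Sv2b and Syt4 was not tested.

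The third WT homecage library of RNA-Seq 1 bears on this comparison. Compared with the other 2 homecage libraries it was lower for 31 of the 46 genes, with a median log2 difference of -0.31, and the difference followed base composition, with a median of -0.47 for the 16 genes of at least 55% G and C and of 0.29 for the 7 genes under 45%. Slc17a7, for example, stood at 3485, 3276 and 1890 CPM in these 3 libraries, and Snph at 947, 1084 and 596 CPM. The median SD of log2 CPM over the 46 genes was 0.24 in this group and between 0.0639 and 0.118 in the other 6 groups. Without that library 2376 of 21132 genes passed the test (11.2%), among them 13 of the 46 genes, 3 higher after learning (Sv2b, Syt4 and Unc13b) and 10 lower, among them Sv2a with -0.19 (adjusted p = 0.00438) and Slc17a7 with -0.21 (adjusted p = 0.00493).

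**Figure D4:**
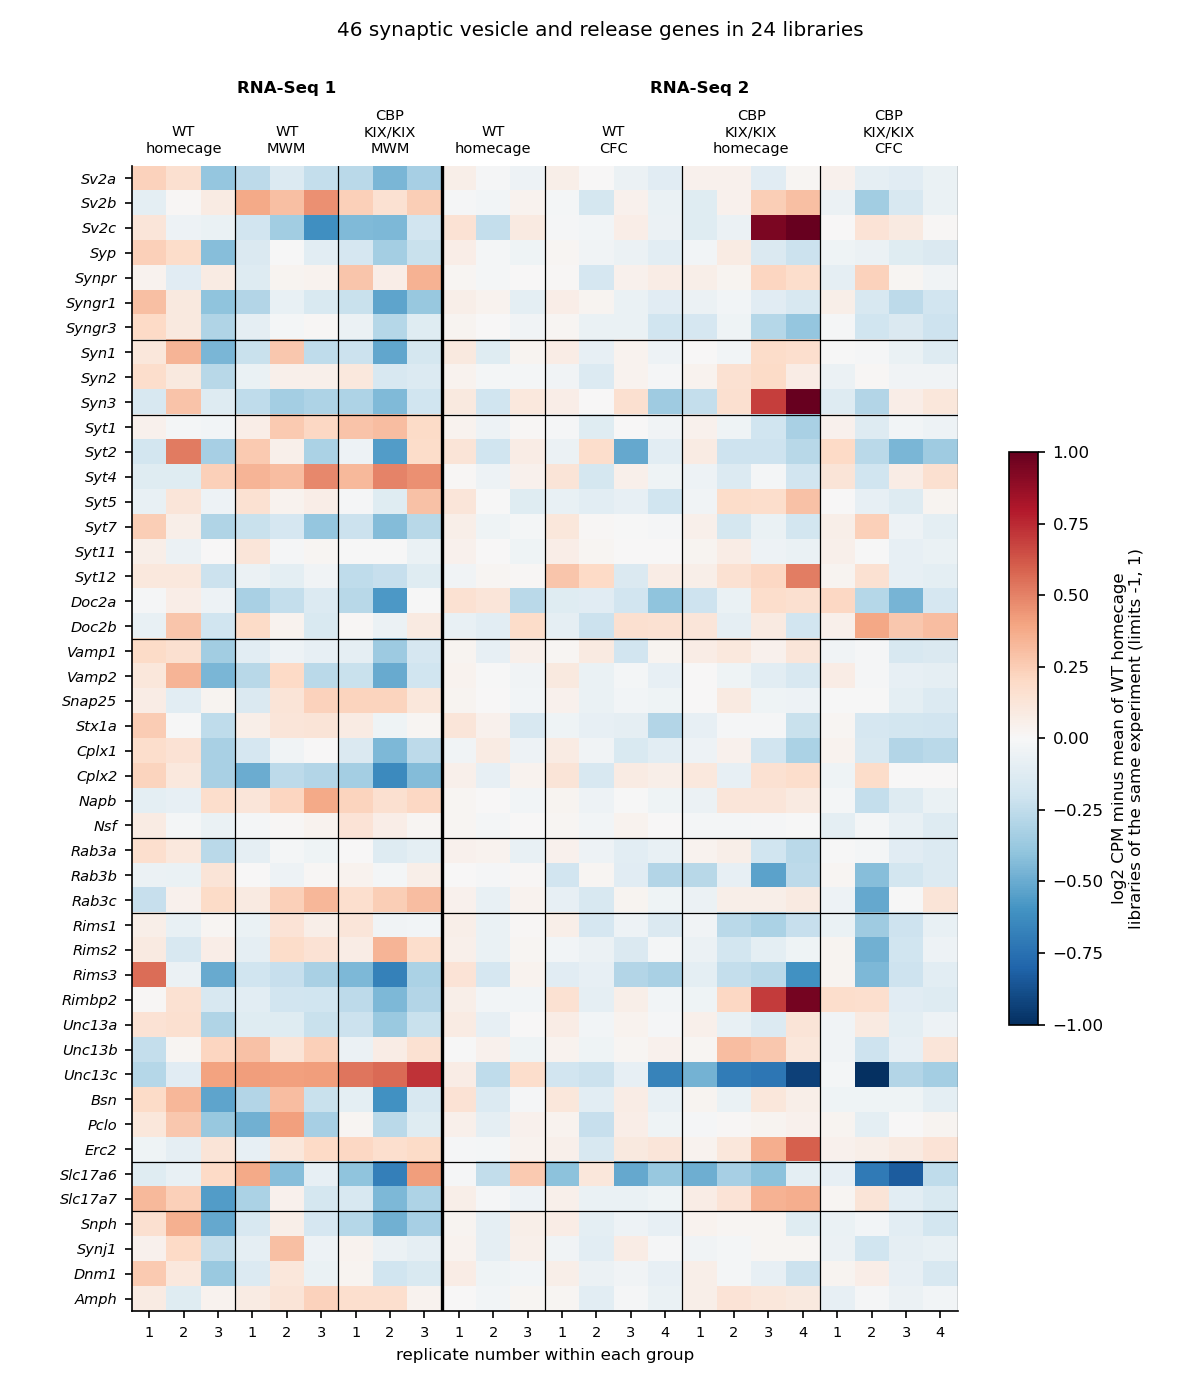
log2 CPM of the 46 genes in the 24 libraries, each minus the mean of the WT homecage libraries of its own experiment, with the colour scale ending at -1 and 1. WT homecage replicate 3 of RNA-Seq 1 (31 of 46 genes below the other 2 homecage libraries) and CBP KIX/KIX homecage replicates 3 and 4 of RNA-Seq 2 stand out as columns.

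In the homecage of RNA-Seq 2, none of the 46 genes passed the test between CBP KIX/KIX and WT mice. The background was 2 of 18682 genes (0.0107%). An unadjusted p under 0.05 in edgeR was reached by 11 of the 46 and by 1144 of the 18682 genes. DESeq2 called 57 of 18662 genes (0.305%) and 1 of the 46, Unc13c, which encodes the priming factor Munc13-3. Unc13c stood at 17.4, 13.9 and 18.7 CPM in WT and at 11.9, 10.2, 9.96 and 8.63 CPM in CBP KIX/KIX homecage mice. All 4 mutant mice lay below all 3 WT mice, with a log2 fold change of -0.70 (SE 0.14, edgeR, adjusted p = 0.388) and, in DESeq2, an adjusted p of 0.00444. Without replicates 3 and 4 the value was -0.58 (SE 0.14, edgeR, adjusted p = 0.658). After CFC Unc13c stood at 14.5, 14.2, 15.6 and 10.4 CPM in WT and at 16.3, 8.12, 13.5 and 13.1 CPM in CBP KIX/KIX mice, with overlap.

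Several genes were far higher in CBP KIX/KIX homecage replicates 3 and 4 than elsewhere in RNA-Seq 2. Sv2c, a form of SV2 found mainly in the basal ganglia, stood at 27.6, 29.0, 58.1 and 72.7 CPM in the 4 mutant homecage mice and between 25.5 and 33.4 CPM in the other 11 libraries. Rimbp2, which encodes the RIM binding protein RIM-BP2, stood at 189, 224, 316 and 377 CPM there and between 177 and 220 CPM in the others. In these 2 genes replicates 1 and 2 lay within or near the range of the other groups and replicates 3 and 4 above it. Of the 46 genes, 7 lay above the range of the other 13 libraries in both replicates (Sv2b, Sv2c, Syn1, Syn3, Rimbp2, Erc2 and Slc17a7) and 5 below it (Syp, Syngr3, Syt1, Vamp2 and Rab3a), 26.1% in all, against 17.6% of the 18851 genes tested.

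Some markers of regions and of astrocytes also stood apart in the mutant homecage mice, in replicate 2 as well as in replicates 3 and 4. Of the 5 dentate granule cell markers, Tdo2 stood at 8.08, 3.15, 1.90 and 1.25 CPM in the 4 mice and Stxbp6 at 120.5, 83.5, 80.5 and 87.9 CPM, whereas Prox1 stood at 82.2, 63.2, 86.6 and 122.8 CPM. The dentate markers thus did not move together, and their sum of 347.8, 266.7, 312.7 and 315.3 CPM was near the 269.4 to 338.6 CPM of WT homecage mice. The CA1 sum was 394.9, 368.6, 326.3 and 289.8 CPM against 382.1 to 435.8 CPM in WT homecage mice, with Fibcd1 at 162, 131, 95.7 and 56.9 CPM. Within that sum Man1a went the other way, at 74.4, 81.6, 85.9 and 89.1 CPM against 65.1 to 74.6 CPM. The astrocyte sum was 3120, 3419, 4033 and 4921 CPM against 2977 to 3123 CPM. Its markers did not move together either. Gfap, at 304, 553, 800 and 1442 CPM, Aqp4 and Slc1a2 were higher in replicates 3 and 4 than in WT homecage mice. Slc1a3 stood at 537, 518, 509 and 530 CPM against 523 to 541 CPM. Aldh1l1 stood at 38.2, 34.0, 38.9 and 49.2 CPM against 38.8 to 42.1 CPM. The part of these markers in the values of Sv2c and Rimbp2 was not tested. With both libraries left out, the log2 fold change between the genotypes in homecage was -0.09 in place of 0.61 for Sv2c, 0.09 in place of 0.50 for Rimbp2 and -0.03 in place of 0.13 for Sv2b.

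**Figure D5:**
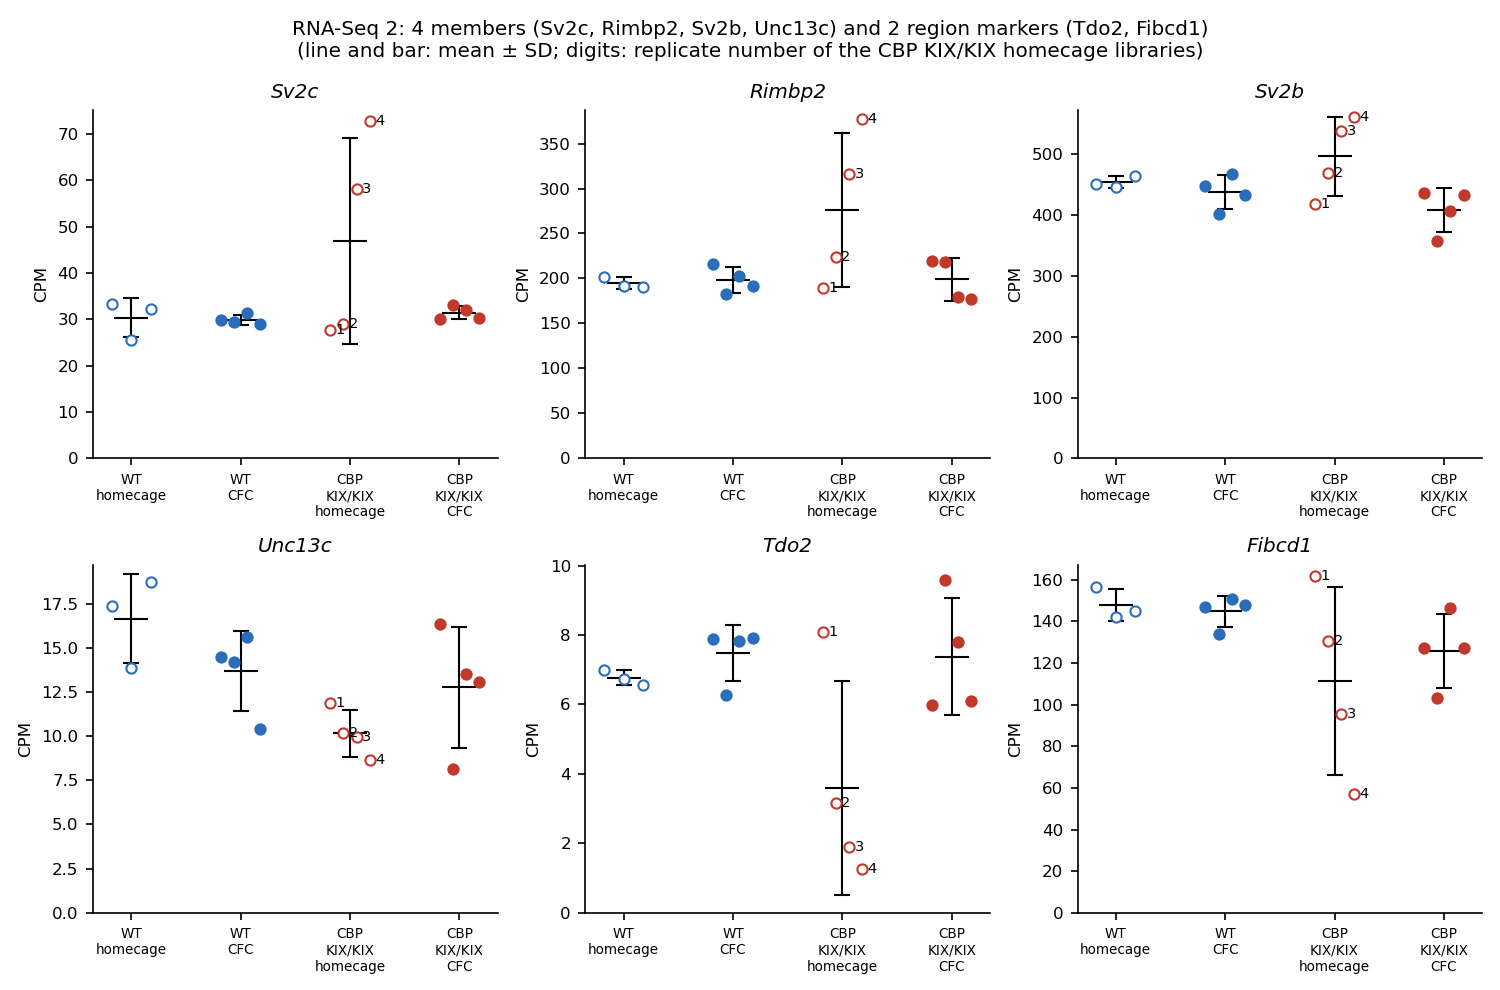
CPM of Sv2c, Rimbp2, Sv2b, Unc13c and of the markers Tdo2 and Fibcd1 in the groups of RNA-Seq 2, with the replicate number written at each CBP KIX/KIX homecage mouse. Replicates 3 and 4 are the highest for Sv2c (58.1 and 72.7 CPM) and Rimbp2 and the lowest for Tdo2 (1.90 and 1.25 CPM) and Fibcd1.

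Between CBP KIX/KIX mice after CFC and in the homecage, 0 of the 46 genes passed the test in edgeR or in DESeq2, against 2 of 17717 genes (0.0113%) in edgeR. An unadjusted p under 0.05 in edgeR was reached by 11 of the 46, 10 of them with a value below 0 after CFC, and by 1670 of the 17717 genes. Sv2b stood at 436, 358, 407 and 434 CPM after CFC and at 418, 469, 539 and 561 CPM in the homecage, with overlap, and its log2 fold change was -0.28 (SE 0.10, edgeR, adjusted p = 0.491). Without homecage replicates 3 and 4 it was -0.12, and edgeR again called none of the 46. An unadjusted p under 0.05 was then reached by 3 of the 46 and by 1126 of 19085 genes. Among the 3 were Vamp1, which encodes synaptobrevin 1, with -0.18 (SE 0.06), and Amph, which encodes amphiphysin, with -0.15 (SE 0.05). The interaction of genotype with training in RNA-Seq 2 gave 0 calls among all 18851 genes (0%). An unadjusted p under 0.05 was reached by 3 of the 46 (Syt12, Unc13b and Unc13c) and by 903 of the 18851 genes. DESeq2 called none of the 46 for this interaction.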

How the data were processed

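RNA of the dorsal hippocampus was sequenced in 24 libraries of 7 groups. The authors ran the bcbio pipeline (STAR for alignment, featureCounts for counting reads over genes) and deposited its raw counts, on mm10 (GRCm38). SAMtools 1.6 and featureCounts 1.4.4 are named in the submitters' processing notes, and the strand setting and the annotation release are not given in the sources used here. Symbols, positions and exon lengths come from GENCODE M21, and CPM, counts per 1000000, are after upper-quartile normalization over the 24 libraries.

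Genes were filtered with filterByExpr, normalized by upper quartile and tested with edgeR 4.0.16 (glmQLFit, glmQLFTest) in R 4.3.3, two-sided, with Benjamini-Hochberg adjustment over all genes tested and calls at an adjusted p under 0.05. The trained mice were fitted with the experiment and 4 factors, the WT mice with the experiment and 3, and the other comparisons without either. The factors were estimated by a separate implementation of RUVr from the residuals of a fit that holds the groups, which leaves the fold change nearly as it was and lowers the SE. The GC-content normalization of the study was not part of the main fit. DESeq2 1.42.0, TMM, other numbers of factors, no filter, the replicate block and leaving out 1 mouse were alternatives. Marker sums were compared by exact permutation tests. Fits with and without the 4 factors were tried on simulated counts that held at most 1 unwanted factor. These counts are simpler than the data, so they do not settle the calls made with factors. p-values measure the spread between these mice, and in the fits with factors only the part of it that the factors left. The floor of 3 counts covers counting error only. Same-numbered libraries were checked for pairing, and only the WT training comparison (correlations of deviations 0.1004 to 0.375 over 6 pairs) and that within mutant mice (0.146 to 0.248 over 4 pairs) met the rule of a correlation over 0.1 in every pair. Over the 30 pairs of libraries of 1 group the chi-square per gene was 2.74 to 91.4, so none was a copy of another.

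Values per library are given for genes called, for Sv2b, and for the gene with the lowest p after learning in each role without a call. Of the 74 other genes, the 3 with the lowest p in each direction among those called are named. The 46 genes and the lists were chosen with earlier results of these data known. Exons of Doc2a, Syt12, Syp, Syt4 and Syn3 overlap a gene of the opposite strand over more than 10% of their length, so that their counts can hold reads of it unless strand was used.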

Additional observations from a re-analysis of the deposited data

Results flagged for a closer look

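Over the 138 combinations of a gene with a group of 4 mice, 3 mice stood apart from the rest of their group by Dixon's criterion at the 95% level, where chance alone gives about 1 in 20. Stx1a, which encodes syntaxin 1A, was high in CBP KIX/KIX CFC replicate 1, at 104.2 CPM against 89.92 to 91.52 CPM in the other 3 mice. Bsn was low in CBP KIX/KIX CFC replicate 4, at 373.8 CPM against 387.3 to 388.0 CPM. Snph was low in CBP KIX/KIX homecage replicate 4, at 374.2 CPM against 413.1 to 417.4 CPM, in the library that also held the highest Sv2c and Rimbp2 of its experiment.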

How the results depend on the processing

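The count of the 46 genes called in CBP KIX/KIX mice after learning, 3 in the fit reported, was 0 with no factors, with 2 factors, in RNA-Seq 1 alone, in RNA-Seq 2 alone and with GC-content normalization without factors. It was 1 with GC-content normalization and with no filter on low counts, 2 with TMM and 9 with DESeq2. These replicate numbers did not pair the libraries (correlations -0.158 to 0.377, and 0.0663 to 0.242 between the genotypes in homecage), and with the replicate block it was 0 without factors and 19 with them. Leaving out 1 mouse gave 0 to 5, with 0 without CBP KIX/KIX MWM replicate 2, 1 without WT MWM replicate 3, CBP KIX/KIX CFC replicate 3 or replicate 4, and 5 without WT CFC replicate 2. Over all genes, 552 became 139 with 2 factors, 217 with GC-content normalization, 254 with no filter, 884 with DESeq2 and 2802 with the block and factors. In WT mice after learning, 0 became 5 with the replicate block and factors and 3 with DESeq2, and 0 to 13 when 1 mouse was left out, with 13 without WT homecage replicate 3 of RNA-Seq 1. In homecage mice DESeq2 called 1 in place of 0. No other call changed with the block in these comparisons.

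Some log2 fold changes changed sign. In the mutant mice after learning, Doc2b was -0.0074 in RNA-Seq 1 alone, Rab3a 0.0156 with GC-content normalization and 0.0148 when this went without factors, and Slc17a7 0.0097 in RNA-Seq 2 alone. In WT mice, Sv2b was -0.0552 in RNA-Seq 2 alone, Syn1 0.0304 with GC-content normalization and 0.0285 when this went without factors, and Doc2b -0.0105 with the replicate block without factors and -0.0096 with them. With 1 mouse left out, Snph ranged from -0.1697 to 0.0171, Syn1 from -0.1335 to 0.037 and Doc2b from -0.0279 to 0.077 there. In homecage, Sv2b was -0.0318 without CBP KIX/KIX homecage replicates 3 and 4. The causes were not tested. GC-content normalization without factors and leaving out both homecage mice were chosen after seeing the data. With 3 or 4 mice a group, differences near 10% between the trained genotypes were called only where the factors lowered the spread.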

Other observations

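Over the 15 libraries of RNA-Seq 2, the genes whose log2 CPM followed Sv2b most closely were Napb (Pearson's r 0.874), which encodes beta-SNAP, Syn3 (0.839), Synj1 (0.755), Erc2 (0.743) and Rimbp2 (0.740). The libraries include CBP KIX/KIX homecage replicates 3 and 4, which are high for Sv2b, Syn3, Erc2 and Rimbp2, and the values are a description. Over the 9 libraries of RNA-Seq 1 the same correlations were 0.847 for Napb, -0.534 for Syn3, -0.09 for Synj1, 0.426 for Erc2 and -0.44 for Rimbp2, so that Napb was the one of the 5 with a value above 0.8 in both experiments.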
